A study of Mus musculus with 12 samples.

Results

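The 10 genes described here, Dusp1, Dusp4, Dusp5, Dusp6, Dusp8, Spry1, Spry2, Spry4, Spred1 and Spred2, encode inhibitors that act back on mitogen-activated protein (MAP) kinase signaling, and were taken by name from the 13552 genes of a table of RNA-sequencing values from mouse hearts. All 10 were in the table and all 10 passed the filter on low values that left 11240 genes for testing. The hearts came from male mice of a C57BL/6 background, either wild-type (WT) or carrying the Bcl-xL S14A knock-in (KI), in which a serine of the anti-apoptotic protein Bcl-xL that can be phosphorylated is replaced with alanine in every cell of the body. Mice of each genotype underwent transverse aortic constriction (TAC), which narrows the aortic arch and so loads the left ventricle with pressure, or a sham operation without constriction, and hearts were collected 9 h later from 3 mice per group and 12 in all. Surgery was performed at 8 to 10 weeks of age and KI mice were homozygous, as the study's methods and text describe its TAC experiments; the labels of these samples give neither. Whole-heart RNA was sequenced, so each value sums over cardiomyocytes, fibroblasts, endothelial and blood-derived cells.

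Growth factors, adrenergic stimulation and mechanical load activate Ras, which passes the signal through RAF and MEK to the kinases ERK1 and ERK2, and active ERK switches on the transcription of its own inhibitors. Dual-specificity phosphatases (DUSPs) remove phosphate from threonine and tyrosine of MAP kinases, whereas the membrane-associated Sprouty (Spry) and Spred proteins act upstream, at the level of receptors, Ras and RAF. In the heart, ERK signaling is known for its part in cardiomyocyte growth under load, and because transcripts of these inhibitors rise after ERK is activated, they are widely used as a transcript readout of the pathway. A transcript level is not a measurement of ERK phosphorylation, which was not part of these data.

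Sequence directly upstream of the start sites is shown first, because 3 of these genes carry exact copies of elements through which signals reach early-response promoters. RefSeq start sites on GRCm38.p6 were found for 8 of the 10 genes (not for Dusp4 and Spry4), and the 250 bases before each were searched on both strands. The stretches below are printed 5′ to 3′ on the gene's strand, with the CArG boxes and the full cyclic AMP response elements in capitals.
Dusp5: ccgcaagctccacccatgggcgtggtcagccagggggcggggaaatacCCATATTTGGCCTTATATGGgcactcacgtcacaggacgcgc
Dusp8: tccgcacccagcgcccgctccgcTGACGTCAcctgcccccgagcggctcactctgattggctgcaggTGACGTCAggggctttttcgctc
Dusp1: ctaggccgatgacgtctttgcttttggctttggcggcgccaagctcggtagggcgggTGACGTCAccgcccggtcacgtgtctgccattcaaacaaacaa

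The Dusp5 stretch, at chr19:53529015-53529104 on the plus strand, holds 2 CArG boxes, the element bound by serum response factor, directly one after the other at −82 to −73 and −72 to −63 from the start site. A CArG box was present in 1.47% of 32817 promoters of the same length, and among the 8 promoters examined Dusp5 was the only one with a match. The stretch also lies in an exon of an annotated antisense gene on the opposite strand. The Dusp8 stretch, at chr7:142095325-142095414 on the minus strand, holds 2 copies of the palindromic cyclic AMP response element TGACGTCA, and the Dusp1 stretch, at chr17:26508573-26508672 on the minus strand, holds 1. That element was present in 1.55% of all promoters. Both of these stretches are upstream of the RefSeq start and in an intron of a longer annotated transcript of the same gene. The shorter core TGACG, which is part of the full element, was found in Dusp1, Dusp5, Dusp8 and Spred2 and in 17.7% of all promoters. Its copies outside a full element, at −191 to −187 in Dusp1 and, on the opposite strand, at −55 to −51 in Dusp5, are left in lower case above. No match to the AP-1 motif TGANTCA (6.75% of all promoters), the ETS motif CCGGAA (12% of all) or the glucocorticoid response element (0.387% of all) lay in the 8 windows.

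Levels are given as RPKM, read counts divided by gene length and library size, which allows genes to be compared. In WT sham hearts, Dusp1, a nuclear phosphatase for p38, JNK and ERK that is itself an early-response gene, had the highest level of the 10 at 57.3 ± 6.49 RPKM (SD, n = 3). Dusp8, a phosphatase that prefers JNK and p38, followed at 39.1 ± 6.38 RPKM. Spry1 (24.8 ± 3.61 RPKM) and Spred2 (24.1 ± 2.52 RPKM) overlapped each other, and Spry2 (14.8 ± 1.07 RPKM) and Dusp6 (10.7 ± 2.01 RPKM) each stood apart from their neighbors in this order. The lowest 4, Spry4 (5.60 ± 0.792 RPKM), Spred1 (4.82 ± 0.330 RPKM), Dusp4 (3.99 ± 2.04 RPKM) and Dusp5 (2.25 ± 0.456 RPKM), each overlapped the next gene in the order. The order in KI sham hearts was the same except that Spred1 (5.52 ± 2.58 RPKM) and Spry4 (4.85 ± 1.36 RPKM), whose values overlapped, changed places.

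**Figure D1:**
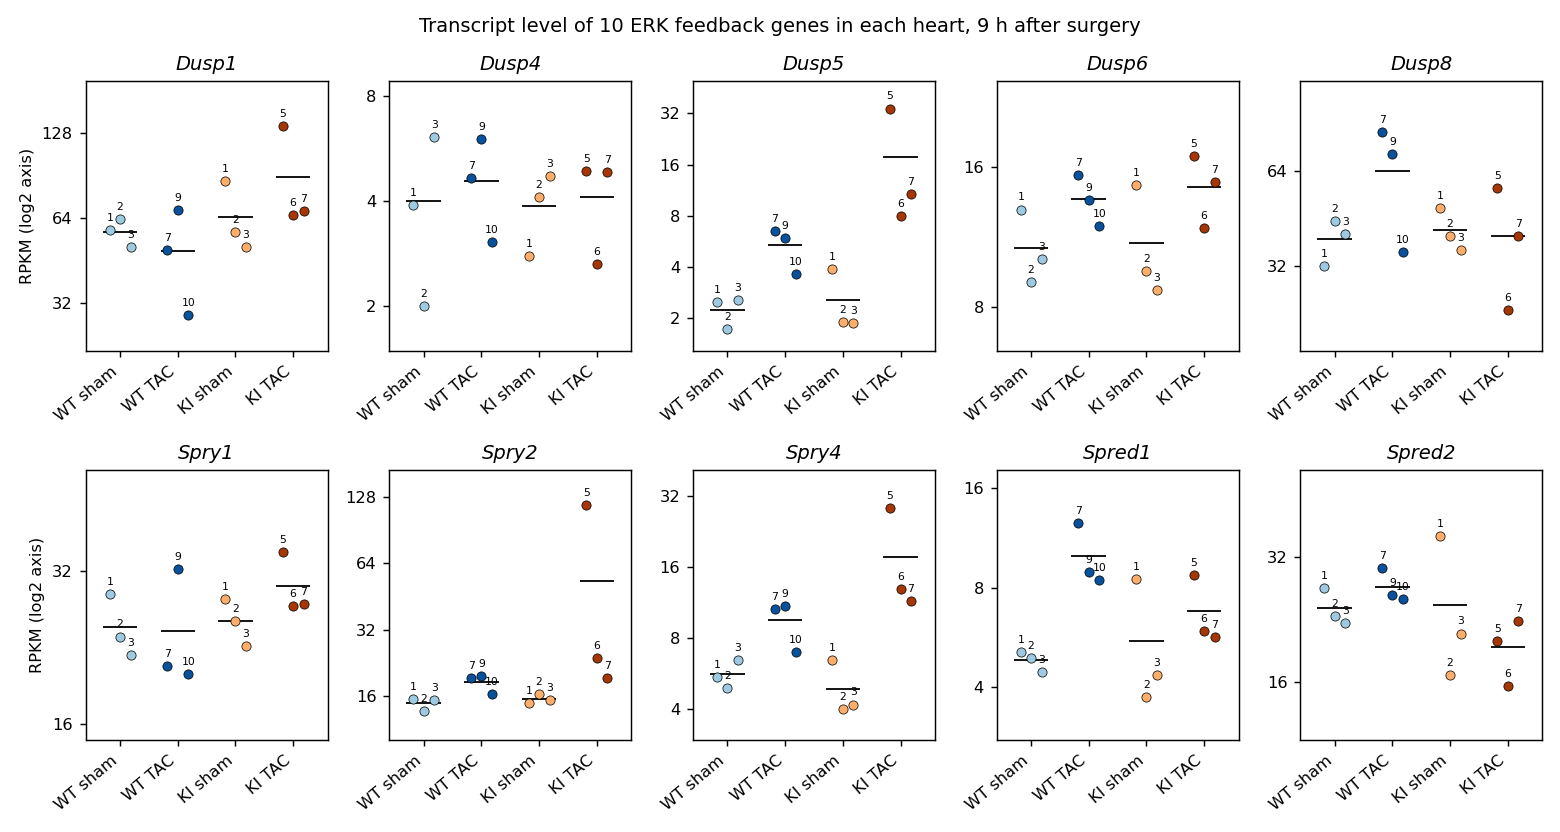
RPKM (log2 axis) of each of the 10 ERK feedback genes in every heart, 3 hearts for each of the 4 groups. Points are single mice labelled with their number, and horizontal lines are group means. KI TAC mouse 5 sat far above the other hearts for Dusp5, Spry2 and Spry4, and WT TAC mouse 10 was the lowest WT TAC heart in every panel.

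The first question was whether pressure overload changed these transcripts in WT hearts. Only Spred1 passed the test, rising 1.86-fold, while Dusp5 and Spry4 were higher in all 3 TAC hearts without passing it. Tests used limma on log2(RPKM + 1) across all 11240 genes, with Benjamini-Hochberg adjustment and a threshold of 0.05, and fold changes are on that scale, which understates changes of low genes. Each gene's standard error was pooled over the hearts of all 4 groups. With 1 of 10 called, the genes did not stand out from the table as a whole, in which 11.6% of genes were called in this comparison (6.96% as higher).

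Spred1 encodes a membrane protein that recruits the Ras inhibitor neurofibromin and is mutated in Legius syndrome, a disorder of Ras-ERK signaling. It was 5.10, 4.91 and 4.46 RPKM in WT sham hearts and 12.5, 8.93 and 8.43 RPKM in WT TAC hearts. The groups did not overlap, and the log2 fold change was 0.90 ± 0.25 (SE, adjusted p = 0.0313 from limma). The adjusted p was 0.0550 with median-ratio scaling and 0.0533 with limma-voom, and it was above 0.05 when any of WT sham mice 1, 2 and 3 or WT TAC mice 7 and 9 was left out (log2 fold changes 0.73 to 0.96).

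Dusp5, a nuclear phosphatase specific for ERK, was 2.48, 1.73 and 2.55 RPKM in WT sham and 6.54, 5.90 and 3.65 RPKM in WT TAC hearts, so that its log2 fold change was 0.95 ± 0.40 (adjusted p = 0.136, limma). The fit of only the groups compared did call Dusp5 (adjusted p = 0.0251 from limma). Spry4, which restrains receptor-driven Ras and RAF activation, was 5.46, 4.89 and 6.45 RPKM in WT sham and 10.6, 10.9 and 6.96 RPKM in WT TAC hearts, with 0.65 ± 0.29 as its log2 fold change (adjusted p = 0.161, limma). Both had an unadjusted p under 0.05, as did 27.9% of all genes tested, and in both WT TAC mouse 10 was the lowest of its group. Spry2, the most studied Sprouty of receptor tyrosine kinase signaling, also did not overlap between the groups (15.6, 13.6 and 15.4 against 19.2, 19.7 and 16.3 RPKM), with a log2 fold change of 0.29 ± 0.46. The pooled standard error of Spry2 takes in KI TAC mouse 5, at 117 RPKM. Its adjusted p from limma ran from 0.252 to 0.770 over the alternative fits. Groups without overlap were found for 4 of the 10 genes and for 35.1% of all genes.

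Dusp8 was 32.1, 44.5 and 40.6 RPKM in WT sham and 84.8, 72.1 and 35.6 RPKM in WT TAC hearts. TAC mice 7 and 9 lay above all sham hearts and mouse 10 among them, and the log2 fold change was 0.62 ± 0.33 (adjusted p = 0.236 from limma). Without mouse 10 it was 0.995 and passed the test (adjusted p = 0.0460 from limma), whereas without mouse 7 it was 0.38 (adjusted p = 0.576). Dusp6, the cytoplasmic phosphatase for ERK that is the most widely used marker of the pathway, was 13.0, 9.07 and 10.1 RPKM in WT sham and 15.3, 13.6 and 11.9 RPKM in WT TAC hearts, with a log2 fold change of 0.33 (95% interval −0.13 to 0.78). Dusp1 (−0.30), Dusp4 (0.21), Spry1 (−0.05) and Spred2 (0.17) had overlapping groups and intervals that included 0, and so did not differ beyond the spread between mice. The median of the 10 genes was 0.31 and that of all genes 0.04.

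In KI hearts, Dusp5 rose 4.49-fold and Spry4 3.00-fold, and Spry2 had the next largest value without passing the test, whereas Spred1 was not called. With 2 of 10 called, both higher, the count stands beside 23.3% of all genes called in either direction and 8.57% called higher. An unadjusted p under 0.05 was found for 3 of the 10, Dusp5, Spry4 and Spry2, and for 36.8% of all genes, and the same 3 had groups without overlap, as had 38.3% of all genes.

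Dusp5 was 3.89, 1.90 and 1.88 RPKM in KI sham and 34.1, 7.97 and 10.8 RPKM in KI TAC hearts. The lowest KI TAC heart was above the highest KI sham heart, and the log2 fold change was 2.17 ± 0.40 (adjusted p = 0.00187 from limma). Spry4 was 6.42, 3.96 and 4.16 RPKM in KI sham and 28.6, 12.9 and 11.4 RPKM in KI TAC hearts, again without overlap, and its log2 fold change was 1.58 ± 0.29 (adjusted p = 0.00195 from limma). In both genes mouse 5 was the highest KI TAC heart. Without it the log2 fold changes were 1.58 for Dusp5 (adjusted p = 0.00237 from limma) and 1.19 for Spry4 (adjusted p = 0.00452 from limma), and both genes were called in every alternative run and with any single mouse left out.

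Spry2 rested on that mouse. It was 14.9, 16.3 and 15.3 RPKM in KI sham and 117, 23.7 and 19.3 RPKM in KI TAC hearts, so that all 3 TAC hearts were above the sham hearts but 1 was 4.94 times the next. The log2 fold change was 1.24 ± 0.46 (adjusted p = 0.0645 from limma), and without mouse 5 it was 0.44 (adjusted p = 0.0981). Leaving out mouse 6 or 7 instead brought Spry2 past the threshold.

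Dusp6 was 14.6, 9.56 and 8.70 RPKM in KI sham and 16.8, 11.8 and 14.9 RPKM in KI TAC hearts, with a log2 fold change of 0.39 (95% interval −0.06 to 0.85), so the most widely used marker of the pathway did not pass the test in either genotype. Dusp1 was 86.7, 56.9 and 50.4 RPKM in KI sham and 135, 65.7 and 67.9 RPKM in KI TAC hearts (log2 fold change 0.42 ± 0.33, groups overlapping), and its log2 fold change ran from 0.085 without KI TAC mouse 5 to 0.65 without KI sham mouse 1. For Dusp6 it was 0.60 without KI sham mouse 1 and 0.26 without KI sham mouse 3, and neither passed. Spred1 was 8.49, 3.74 and 4.34 RPKM in KI sham and 8.75, 5.92 and 5.67 RPKM in KI TAC hearts, a log2 fold change of 0.30 (95% interval −0.23 to 0.83). This value depended on single hearts, being 0.61 without KI sham mouse 1 (adjusted p = 0.0647 from limma), 0.11 and 0.19 without KI sham mice 2 and 3, and 0.13 without KI TAC mouse 5. KI sham mouse 1 was above KI TAC mice 6 and 7 for Spred1, and it was the highest KI sham heart in 8 of the 10 genes, as it was for 39.1% of all genes. Dusp4 (0.06), Dusp8 (−0.13), Spry1 (0.22) and Spred2 (−0.27) overlapped between the groups. The median was 0.35 for the 10 genes and −0.10 for all genes.

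**Figure D2:**
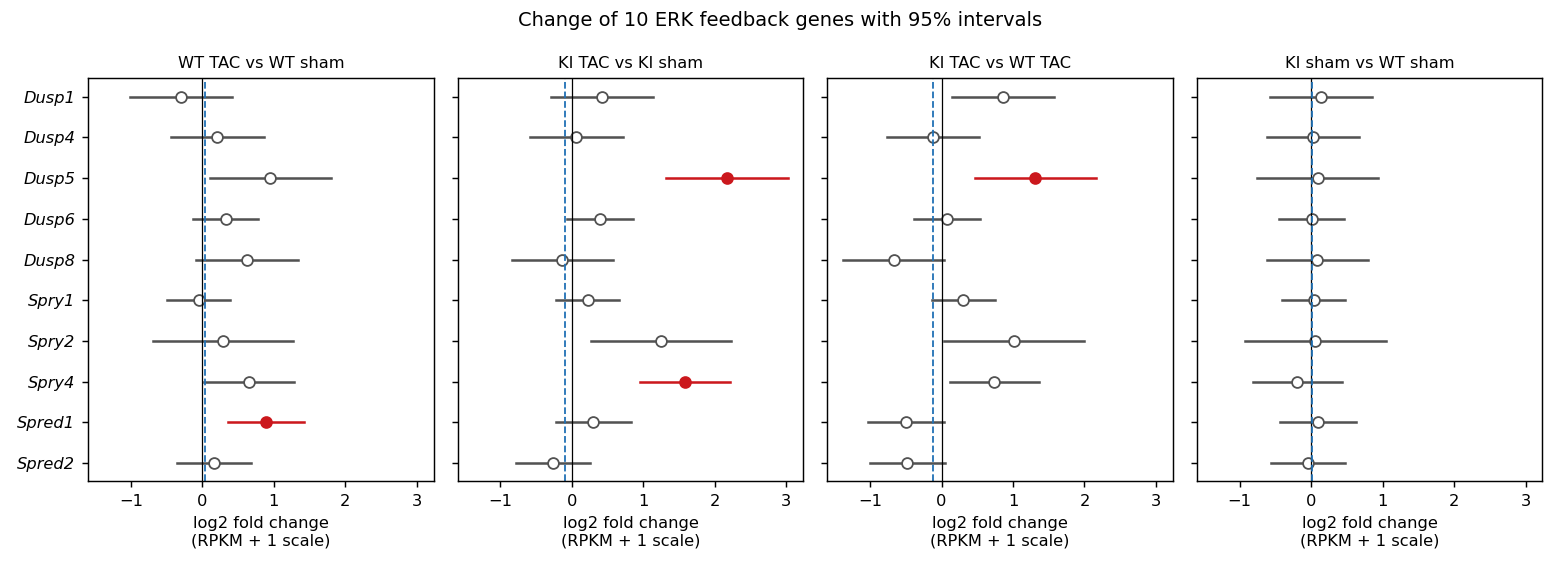
Log2 fold change (RPKM + 1 scale) of the 10 genes in 4 comparisons, with 95% intervals as horizontal bars. Filled red points passed the adjusted threshold of 0.05 across all genes, open points did not, and the dashed line is the median of all 11240 genes. Spred1 was called in WT hearts, Dusp5 and Spry4 in KI hearts, Dusp5 between the TAC groups, and no gene between the sham groups.

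Between the TAC groups, which asks how the genotypes differed under load, Dusp5 was the gene called, 2.48-fold higher in KI than in WT hearts (17.6 ± 14.4 against 5.36 ± 1.52 RPKM, SD, n = 3 each). The 3 KI values, from 7.97 to 34.1 RPKM, lay above the 3 WT values, from 3.65 to 6.54 RPKM, and the log2 fold change was 1.31 ± 0.40 (adjusted p = 0.0487 from limma). The call was at the edge of the threshold. The adjusted p was between 0.0506 and 0.127 in the 8 other fits of the full data, and without KI TAC mouse 5 the log2 fold change was 0.72 (adjusted p = 0.115). Genes called made up 11% of the table in this comparison and 2.92% were called higher. That background depended on the mice, since the count of 1242 genes fell to 154 or 770 on leaving out mouse 7 or 10 of the WT TAC hearts, respectively, to 629 or 182 on leaving out mouse 5 or 6 of the KI TAC hearts, and to 216 in the fit of only the groups compared. An unadjusted p under 0.05 was found for 4 of the 10 genes (Dusp1, Dusp5, Spry2 and Spry4) and for 30.3% of all.

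Spry4 was also higher in every KI TAC than in every WT TAC heart (log2 fold change 0.74 ± 0.29, adjusted p = 0.108 from limma), and without mouse 5 the value was 0.35. Dusp1 was 49.4, 68.4 and 29.0 RPKM in WT TAC hearts and its log2 fold change was 0.86 ± 0.33 (adjusted p = 0.101, limma), which became 1.14 and passed without WT TAC mouse 9 (adjusted p = 0.0411) but was 0.53 without WT TAC mouse 10 and 0.52 in the absence of KI TAC mouse 5. Spry2 had 1.01 ± 0.46 (adjusted p = 0.155 from limma), and 0.21 without mouse 5. Leaving out KI TAC mouse 7 instead, whose removal raised the count over all genes from 1242 to 1812, brought Spry2 (1.48) and Spry4 (0.97) past the threshold beside Dusp5.

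The Spred genes had values on the other side. Spred2, which inhibits Ras-ERK signaling as Spred1 does, was 30.1, 25.9 and 25.4 RPKM in WT TAC and 20.1, 15.6 and 22.4 RPKM in KI TAC hearts. The groups did not overlap, and the log2 fold change was −0.48 (95% interval −0.996 to 0.043, adjusted p = 0.199 from limma). Spred1 had −0.50 (95% interval −1.03 to 0.03) and Dusp8 had −0.67 (95% interval −1.38 to 0.04), with overlapping groups. The Dusp8 value ran from −1.04 to −0.34 when single mice were left out (WT TAC mouse 10 and KI TAC mouse 6, respectively). Groups without overlap were found for 3 of the 10 genes, Dusp5, Spry4 and Spred2, and for 29.5% of all genes. Dusp4 (−0.12), Dusp6 (0.08) and Spry1 (0.31) did not differ beyond the spread between mice.

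Between the sham groups none of the 10 was called by limma, none had an unadjusted p under 0.05, none did under limma-voom, and in none were the groups apart. The log2 fold changes ran from −0.19 to 0.14, and of all genes 0.0178% were called, 0.329% had an unadjusted p under 0.05 and 3.27% had groups without overlap. With 3 hearts a side and a spread pooled over all 4 groups, the 95% intervals still allowed differences of up to 1.04 for Spry2 and 0.94 for Dusp5. That spread includes KI TAC mouse 5, whereas the sham values of Spry2 ran from 13.6 to 16.3 RPKM.

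With all 4 groups fitted together, Dusp5 and Spry4 were called in KI and not in WT hearts, and Spred1 in WT and not in KI hearts. In the fit of only the groups compared, Dusp5 was called in WT hearts too. The difference between the responses was tested as an interaction of genotype and surgery. No gene of the 10 was called, here or in any alternative run. Among all genes tested, 0 were called by limma and 0 by limma-voom, but 50 were at an adjusted p of 0.10, 232 when WT TAC mouse 9 was left out, 7 for WT TAC mouse 10 and 183 for KI TAC mouse 7. Dusp5 (1.22 ± 0.56, unadjusted p = 0.0469, adjusted p = 0.330 from limma) and Spry4 (0.93 ± 0.41, unadjusted p = 0.040, adjusted p = 0.316) had an unadjusted p under 0.05, as did 14.8% of all genes, and with limma-voom 1 of the 10 did. The interaction was −0.59 ± 0.35 for Spred1 (adjusted p = 0.432 from limma), −0.76 ± 0.47 for Dusp8 and 0.95 ± 0.65 for Spry2. Leaving out KI TAC mouse 5 brought the interaction to 0.63 for Dusp5, 0.54 for Spry4 and 0.15 for Spry2, leaving out KI sham mouse 1 brought it to −0.29 for Spred1, and leaving out KI TAC mouse 6 to −0.43 for Dusp8. The responses of WT and KI hearts were therefore not shown to differ for any of these genes.

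Hearts of a group differed together across the genes. WT TAC mouse 10 was the lowest of its 3 mice for all 10 genes, against 26.3% of all genes, and KI TAC mouse 5 was the highest of its 3 mice for 9 of the 10, against 19.8% of all genes. With median-ratio scaling, which changes the place of a heart among all genes, the counts were 10 of 10 for both (38.2% and 36.6% of all genes). Summed over the 10 genes, the levels were 254, 264 and 160 RPKM in WT TAC mice 7, 9 and 10, and between 180 and 191 RPKM in WT sham hearts, so that mouse 10 was below its controls. The sums were 457, 197 and 225 RPKM in KI TAC mice 5, 6 and 7 and 251, 178 and 169 RPKM in KI sham mice 1, 2 and 3. Mouse 5 was more than 1 log2 unit above the next heart in 3 of the 10 genes, Dusp5, Spry2 and Spry4, and in 1.26% of all genes. This count over mice was chosen after the values were seen.

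The early genes moved with the same hearts, but not every list did. Of 15 early genes induced by ERK and related signals, such as Fos, Egr1 and Myc, 14 were tested. Their mean level, centered on all 12 hearts, was 0.54, 0.88 and −0.32 on the log2 scale in WT TAC mice 7, 9 and 10 and 2.50, 1.30 and 1.07 in KI TAC mice 5, 6 and 7, while it lay between −1.11 and −0.82 in the 6 sham hearts. The same mean over the 10 feedback genes was 0.28, 0.30 and −0.23 in the WT TAC hearts and 0.96, −0.03 and 0.19 in the KI TAC hearts. In both, mouse 10 was the lowest WT TAC heart and mouse 5 the highest KI TAC heart. The MAP kinase score genes described below had 0.25, −0.15 and 0.20 in the WT TAC hearts and 0.64, −0.070 and −0.0019 in the KI TAC hearts. For the Ras-RAF-MEK-ERK cascade the values were 0.113, 0.036 and 0.124 in WT TAC and −0.198, −0.138 and 0.099 in KI TAC hearts.

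The early genes rose in 8 of 14 cases in WT hearts (median log2 fold change 1.51) and in 14 of 14 in KI hearts (median 2.42), and 7 were higher in KI than in WT TAC hearts (median 1.37), beside 6.96%, 8.57% and 2.92% of all genes called higher. Of these genes 4, Egr2, Egr3, Fos and Fosl1, passed the filter on low values only with the help of TAC hearts, which favored calls, and over the other 10 the counts were 6, 10 and 6. When single mice were left out, the count of 7 between the TAC groups was 2 or 4 for WT TAC mice 7 or 10 and 3 or 2 for KI TAC mice 5 or 6, respectively. Among the called early genes, the largest log2 fold changes besides that of Hbegf were those of Myc (1.97), Junb (1.80), Plaur (1.66) and Ier3 (1.59) in WT hearts and Fos, Egr1 (3.58), Myc (3.19) and Fosl1 (2.80) in KI hearts, and between the TAC groups those of Hbegf (1.77), Myc (1.5), Ier2 (1.43), Zfp36 (1.42) and Maff (1.31). In KI hearts they rested in part on mouse 5, without which Fos had 2.80, Egr1 2.82, Myc 2.67, Fosl1 1.92 and Hbegf 3.62, and all 14 early genes were still called. Hbegf, an epidermal growth factor receptor ligand, had log2 fold changes of 2.50 ± 0.53 in WT and 4.23 ± 0.53 in KI hearts (adjusted p = 0.00930 and 0.000186 from limma). Fos, a subunit of the AP-1 transcription factor, rose in KI hearts (4.08 ± 0.81, adjusted p = 0.00317 from limma) and was 200, 22.8 and 7.38 RPKM in KI TAC mice 5, 6 and 7.

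**Figure D3:**
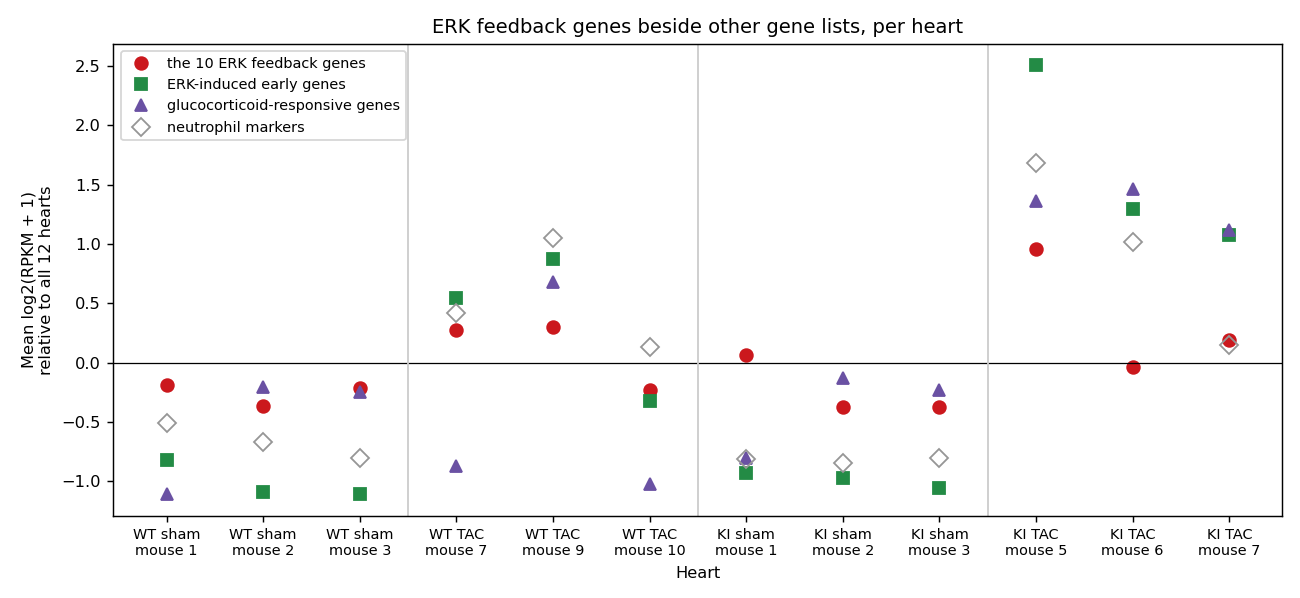
Mean log2(RPKM + 1) of 4 gene lists in each of the 12 hearts, centered on the mean of all hearts for every gene. Red circles are the 10 feedback genes, green squares ERK-induced early genes, purple triangles glucocorticoid-responsive genes and gray diamonds neutrophil markers. The feedback genes and the early genes were both lowest in mouse 10 among the WT TAC hearts and highest in mouse 5 among the KI TAC hearts.

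Cell type markers were examined beside these results, since in whole-heart RNA fewer cells of a type and less RNA per cell cannot be told apart. The counts below stand beside 11.6% of all genes called in WT hearts, 23.3% in KI hearts and 11% between the TAC groups. Neutrophil markers summed to between 0.395 and 1.27 RPKM in the 6 sham hearts, 5.37, 9.87 and 3.69 RPKM in WT TAC mice 7, 9 and 10 and 20.3, 11.3 and 4.18 RPKM in KI TAC mice 5, 6 and 7, so that mouse 5 was the highest heart here too. Of 6 neutrophil markers 3 were in the table, and all 3 rose in KI hearts and 2 in WT hearts. All 3 (S100a8, S100a9 and Csf3r) were below 1 RPKM in every sham heart and passed the filter only through TAC hearts, so that this count was favored by the filter. Of 5 macrophage and monocyte markers tested, 4 rose in WT hearts (Cd14, Cd68, Lyz2 and Adgre1) and 1 rose (Cd14) and 1 fell (Csf1r) in KI hearts, and their sum was highest in WT TAC mouse 10 (203 RPKM, against 69.6 to 116 RPKM in WT sham hearts). Between the TAC groups Adgre1 and Csf1r, which mark macrophages, were lower in KI hearts, 2 of the 5. Fibroblast markers, of which Lum fell in KI hearts, summed to 610 RPKM in WT TAC mouse 10. The other 11 hearts had between 92.2 and 271 RPKM. Col1a1 made up 461 of the 610 RPKM. Col1a1, Col1a2, Lum, Pdgfra and Tcf21 each peaked in mouse 10, whereas Dcn (43.3 RPKM) lay within its WT sham values (31.8 to 50.2 RPKM). Log2 fold changes of this list were positive for 6 of 6 genes in WT hearts (median 0.52). For KI against WT TAC hearts the count was 0 of 6 (median −0.71). No fibroblast marker was called in either comparison. Cardiomyocyte markers, all 8 of them present at 14692 to 24743 RPKM in sum, included 2 that fell in WT hearts (Myh6 and Atp2a2) and 1 in KI hearts (Pln), and Myl2 and Tnni3 were higher in KI than in WT TAC hearts. Actc1 was much of that sum, at 19135 of the 24743 RPKM in WT TAC mouse 10. In WT hearts the list had a median log2 fold change of −0.63, with 1 of 8 higher. Its centered mean was −0.49, −0.35 and −0.19 in WT TAC mice 7, 9 and 10 and 0.071 to 0.29 in WT sham hearts. Glucocorticoid-responsive genes, of which Dusp1 is a known example although it was kept off that list, rose in 6 of 10 cases in KI hearts and 1 of 10 in WT hearts, where 1 fell, beside 8.57% and 6.96% of all genes called higher. Mt2, a metallothionein, rose in both (5.06 in KI and 1.89 in WT hearts, the latter 1.10 and not called without WT TAC mouse 9), Cdkn1a (3.37), Mt1 (2.77), Fkbp5 (2.30) and Pdk4 (2.08) rose in KI hearts, and Tsc22d3 fell in WT hearts (−1.08). The mean level of the list, centered on all 12 hearts, was −0.87, 0.68 and −1.02 in WT TAC mice 7, 9 and 10, so that mouse 9 stood apart, and between 1.11 and 1.46 in the KI TAC hearts. In sham mice 1, 2 and 3 it was −1.11, −0.20 and −0.25 for WT and −0.80, −0.13 and −0.23 for KI. In KI against WT TAC hearts, where Dusp5 was called and Dusp1 had 0.86, 8 of the 10 glucocorticoid-responsive genes were higher, against 2.92% of all genes (median log2 fold change 1.85, beside −0.12 for all genes). They were led by Mt2 (3.16), Pdk4 (2.62), Fkbp5 (2.2), Mt1 (2.11) and Cdkn1a (2.0), and the count of 8 was 2 to 8 with single mice left out. The part of these cells and signals in the feedback transcripts was not tested. No endothelial marker and no smooth muscle or pericyte marker was called in any comparison, against 11% to 23.3% of all genes in the 3 comparisons that include TAC hearts. Markers of atria, skeletal muscle, fat and lymphocytes were not analysed here.

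The remaining inhibitors of the pathway showed changes of both signs. Of the other MAP kinase phosphatases 3 were tested. Dusp7, a cytoplasmic ERK phosphatase close to Dusp6, had the highest level of the phosphatases examined in sham hearts, at 145, 223 and 175 RPKM in WT sham hearts and 193, 159 and 158 RPKM in KI sham hearts. It was 176, 164 and 90.8 RPKM in WT TAC hearts and 74.8, 34.2 and 65.8 RPKM in KI TAC hearts. The KI TAC hearts were all below the other 9, and the log2 fold change was −1.60 ± 0.31 against KI sham (adjusted p = 0.00268 from limma) and −1.30 ± 0.31 against WT TAC hearts (adjusted p = 0.0211). Dusp10, which acts on JNK and p38, rose in KI hearts from 1.84 ± 0.333 to 8.51 ± 6.70 RPKM (log2 fold change 1.52 ± 0.35, adjusted p = 0.00777 from limma), with mouse 5 the highest at 16.1 RPKM. Without mouse 5 the log2 fold change was 0.98 and Dusp10 was still called. Dusp16 was not called in any comparison. Mouse 5 had the highest Dusp5 of all 12 hearts and a Dusp7 level below every sham heart.

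Among 7 atypical dual-specificity phosphatases tested, which are small enzymes mostly without a MAP kinase docking domain, 4 changed in WT hearts and 3 in KI hearts, where 11.6% and 23.3% of all genes were called. Dusp27, a muscle protein without known phosphatase activity, rose in both (log2 fold change 1.11 ± 0.30, adjusted p = 0.0287, and 2.44 ± 0.30, adjusted p = 0.000173 from limma) and was higher in KI than in WT TAC hearts (1.18 ± 0.30, adjusted p = 0.0268). It was 60.8 ± 9.04 RPKM in KI TAC and 28.0 ± 13.0 RPKM in WT TAC hearts. Dusp18 (−1.20 and −1.74) and Dusp23 (−0.94 and −1.01) fell in both genotypes, and Dusp28 fell in WT hearts (−0.81).

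Of 10 further ERK feedback inhibitors, Spred3 rose in WT hearts from 0.602 ± 0.231 to 1.58 ± 0.580 RPKM (log2 fold change 0.67 ± 0.18, adjusted p = 0.0248 from limma). It was below 1 RPKM in all 6 sham hearts and passed the filter only through TAC hearts, which favored this call. Errfi1, an inducible inhibitor of epidermal growth factor receptor kinases, rose in KI hearts from 8.80 ± 5.22 to 43.2 ± 24.5 RPKM (2.15 ± 0.45, adjusted p = 0.00404 from limma) and was higher in KI than in WT TAC hearts (1.61 ± 0.45, adjusted p = 0.0368). Its highest value, 70.7 RPKM, was again in mouse 5. Lrig1, which promotes degradation of the same receptors, fell in KI hearts (−0.92, adjusted p = 0.00572 from limma) and was lower in KI than in WT TAC hearts (−0.83, adjusted p = 0.0232), as was Rasa1, a Ras GTPase-activating protein (−0.66, adjusted p = 0.0444). These calls among 10 genes stand beside 11.6% of all genes called in WT hearts, 23.3% in KI hearts and 11% between the TAC groups.

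**Figure D4:**
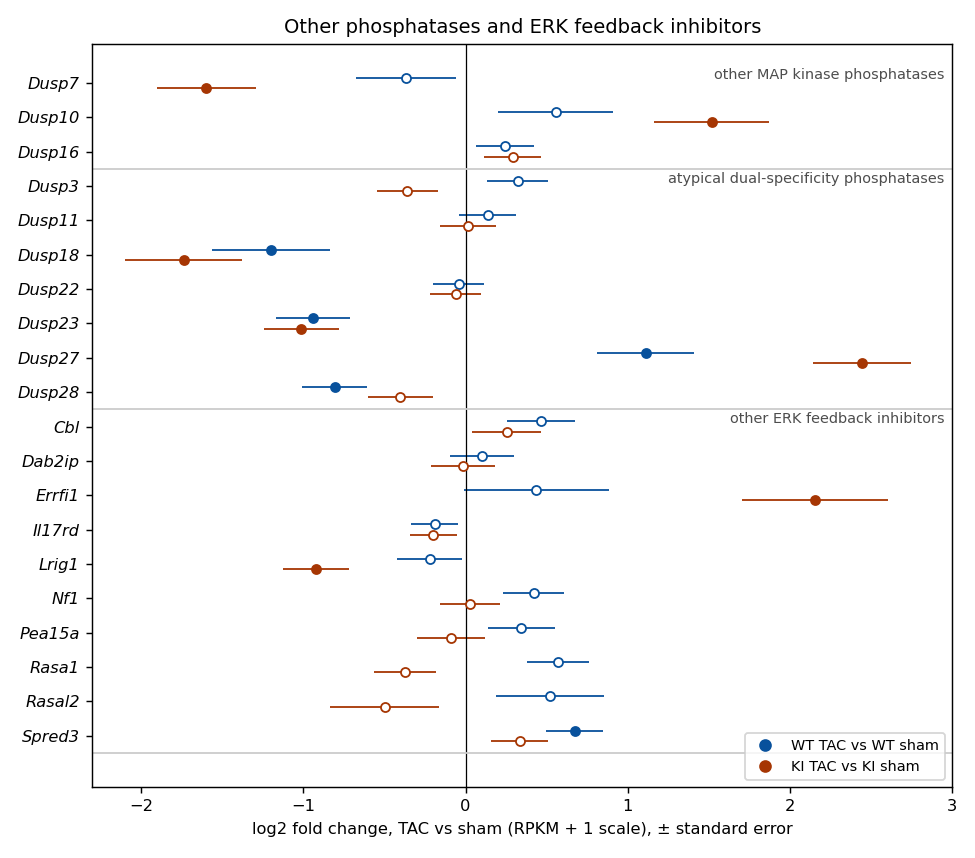
Log2 fold change after TAC (RPKM + 1 scale) of the other phosphatases and ERK feedback inhibitors, in WT hearts (blue) and KI hearts (orange-brown), with standard errors as horizontal bars. Filled points passed the adjusted threshold of 0.05. Dusp27 rose in both genotypes, Dusp7 fell in KI hearts, and Errfi1 and Dusp10 rose in KI hearts.

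Among 5 tested genes used elsewhere with Dusp4, Dusp6, Spry2 and Spry4 as a score of MAP kinase output, Phlda1 (2.26) and Epha2 (0.92) rose in KI hearts and Epha4 fell (−1.55), Epha4 was lower in KI than in WT TAC hearts (−0.87), and none was called in WT hearts. Without KI TAC mouse 5 the rise in KI hearts was 1.49 for Phlda1 and 0.62 for Epha2. Of 17 genes of the Ras-RAF-MEK-ERK cascade, Nras rose in both genotypes (0.69 and 0.70), Gab1, an adaptor that couples receptors to Ras, fell in KI hearts (−1.05), and Gab1 (−0.67) and Sos1 (−0.71) were lower in KI than in WT TAC hearts. In the JNK and p38 cascades, whose kinases are substrates of Dusp1, Dusp8 and Dusp10, 0 of 12 genes were called in WT hearts by limma, where 11.6% of all genes were. In KI hearts Map2k3 (0.83) and Map2k4 (0.47) rose and Map2k6 (−0.79), Mapk14 (−0.75) and Mapkapk3 (−0.73) fell. None of 7 genes of the ERK5 cascade was called, beside 11% to 23.3% of all genes in the comparisons that include TAC hearts. Of 13 genes for fibroblast and vascular endothelial growth factors and their receptors, which drive Spry transcription in many tissues, Fgf18 (1.89) and Fgf2 (0.77) rose in WT hearts, Fgf16 (−1.14) and Fgf13 (−0.66) fell in KI hearts, and Fgf18 was lower in KI than in WT TAC hearts (−1.51). Of 8 ETS and serum response factor genes, Elk1 fell in KI hearts (−0.46). These values are log2 fold changes, and those from all hearts had an adjusted p under 0.05 from limma. Over all genes, 11.6% were called in WT hearts, 23.3% in KI hearts and 11% between the TAC groups. Calls among the 17 cascade genes were near or below those shares.

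Genes whose profile over the 12 hearts was nearest to a called feedback gene were found by the root mean square difference of centered log2 values, as a description. For Dusp5 they were Phlda1 (0.26), Srxn1 (0.31) and Cxcl1 (0.34), against a spread of 1.03 of Dusp5 itself. Phlda1 was 137, 28.6 and 25.7 RPKM in KI TAC mice 5, 6 and 7, and mouse 5 was the highest of the 12 hearts for both Phlda1 and Dusp5. For Spry4 they were Tiam2 (0.17), Slc23a2 (0.21) and Smad1 (0.21), against 0.71. For Spred1 they were Cdk17 (0.14), Nfkbie (0.17) and Sema6d (0.17), against 0.45. The 3 sets had no gene in common.

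Some values rest on reads that annotation cannot assign without strand. Dusp5 overlaps an annotated antisense gene, Dusp1 the exons of Ergic1, and Dusp8 and Spry1 noncoding genes, each on the opposite strand. The libraries kept strand, but the strand setting used in counting is not given in the sources used here.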

How the data were processed

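Per the study's methods, poly(A)-selected, strand-specific libraries were read as single 75-base reads; the authors trimmed them (Trimmomatic 0.39), mapped them to GRCm38 (HISAT2 2.2.1) and counted them per gene (HTSeq 0.6.1). The authors deposited RPKM values per gene and mouse; how normalization and the choice of genes were done is not given in the sources used here. Between 95.6% and 97.5% of low values were whole multiples of 1 read (within 0.05 reads), which gave 23650191 to 32455166 reads on genes per heart.

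Genes of at least 1 RPKM in 3 or more mice were tested on log2(RPKM + 1) with limma 3.58.1 (R 4.3.3; trended empirical Bayes, 4-group model, 5 comparisons). With 3 mice against 3, an exact permutation test of a single gene cannot go below p = 0.1, and the p-values measure the spread between these mice. Samples were grouped by their labels. Alternatives were other pseudocounts, filters, scalings, limma-voom on the recovered reads, 2-group fits, a looser threshold and leaving out each mouse. The members and lists were chosen with earlier results of these data known. All members are named, with the called genes of each list, at most the 5 largest changes per list and comparison, and the 3 genes most like each called member. Methods were tested on simulated data.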

Additional observations from a re-analysis of the deposited data

How the results depend on the processing

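The numbers of feedback genes called for KI TAC against KI sham (2), the sham groups (0) and the interaction (0) were the same in every fit of the full data except that the first was 3 at an adjusted p of 0.10. In WT hearts the count of 1 was 0 with median-ratio scaling or limma-voom, 2 (Spred1 and Dusp5) in the fit of only the groups compared, and 0 to 2 with single mice left out. Between the TAC groups the count of 1 was 0 with a pseudocount of 0.1, without a filter, with at least 10 reads in every mouse, with quantile normalization, median-ratio scaling, limma-voom, limma without trend or only the groups compared, and 0 to 3 with single mice left out. The sham numbers 1, 2 and 3 are shared by both genotypes, and deviations of same-numbered hearts correlated at −0.22, −0.30 and 0.44. These values had no common sign, but so few of them cannot exclude a pairing. A fit with the replicate block called 0 feedback genes. Scalings that bring the median of all genes to about 0 moved it from −0.10 in KI and −0.12 between the TAC groups, and the share of calls that were higher went from 60.2% to between 48.1% and 53.6% in WT, from 36.8% to between 48.3% and 51.9% in KI, and from 26.4% to between 46.0% and 51.6% between the TAC groups.

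Signs turned only among uncalled values. Dusp8 in KI hearts became 0.00085 with median-ratio scaling and 0.0015 with limma-voom, Dusp4 between the TAC groups became 0.023, 0.0032 and 0.0038 with quantile, median-ratio and limma-voom, and its interaction became 0.019 with quantile normalization. With single mice left out, WT values ran from −0.58 to 0.028 (Dusp1), −0.12 to 0.50 (Dusp4) and −0.26 to 0.068 (Spry1), KI values from −0.11 to 0.29 (Dusp4), −0.42 to 0.20 (Dusp8) and −0.50 to 0.036 (Spred2), values between the TAC groups from −0.33 to 0.11 (Dusp4) and −0.031 to 0.21 (Dusp6), and interactions from −0.44 to 0.17 (Dusp4) and −0.070 to 0.27 (Dusp6). Between the sham groups 8 of the 10 genes, all but Spry2 and Spry4, had both signs with single mice left out (−0.35 to 0.32), and Dusp6 became −9.3e-05 with limma-voom. The cause was not tested. Removing a mouse or adding a scaling did not turn the sign of any called value. Over all genes, the count of 1299 in WT was 858, 655 and 682 without WT sham mice 1, 2 and 3 and 582 without WT TAC mouse 7, and that of 2620 in KI was 1448 without KI sham mouse 3. Of Dusp7, Dusp27, Errfi1, Lrig1, Rasa1, Gab1, Sos1, Epha4 and Fgf18, named as differing between the TAC groups, only Fgf18 was called there with each of the 6 mice left out in turn. Leaving out at least 1 of the mice ended the calls of Dusp18, Dusp23, Dusp27, Dusp28, Fgf2, Nras, Spred3, Ier3, Fosl2, Mt2 and Tsc22d3 in WT and of Elk1, Epha2, Fgf13, Fgf16, Map2k3, Map2k4, Mapk14 and Pdk4 in KI hearts. The leave-one-out counts of the early and glucocorticoid-responsive genes were added after the data were seen. With 3 mice a group, whose spread is wide in KI TAC hearts, differences within the intervals given were not detectable.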
